A study of Homo sapiens with 6 samples.

Results

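The annexins are a family of calcium-dependent, phospholipid-binding proteins, and 10 of their genes are described here: ANXA1, ANXA2, ANXA3, ANXA4, ANXA5, ANXA6, ANXA7, ANXA10, ANXA11 and ANXA13. Their members were the probe sets that the platform annotation pairs with exactly 1 of these symbols, which gave 15 probe sets of the 22215 on the array other than controls. ANXA2 had 3 probe sets, ANXA4, ANXA7 and ANXA11 had 2 each, and the others had 1. The family was selected on the intensity difference of ANXA10 between the lines, which was among the largest on the array, so the annexin differences, and the count of annexin probe sets that passed a test, are given as a description, and no annexin p-value is printed.

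A pair of human colon cancer cell lines was measured on Affymetrix arrays. E1 is called metastatic and derived in vivo by the labels, which do not say how or in which host; the field naming its cell line holds HCT116 too. HCT116 is a long-established colon carcinoma line, labelled as poorly metastatic. Each line had 3 arrays that the labels call triplicates, and since nothing states that separate cultures were used, the errors cover the spread between arrays alone, which may be technical.

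Annexins bind negatively charged membrane lipids through a conserved core of repeats when calcium rises, and each member carries its own N-terminal tail. They take part in membrane repair, endocytosis, exocytosis and the linking of membranes to actin. ANXA10 is best known from gastric epithelium, and in the colon it is used as a marker of sessile serrated lesions.

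The stretches just before the annotated starts of ANXA10, ANXA1 and ANXA5 are shown because they set the gene with the large difference beside a family member of like base composition and one of contrasting composition. They are the 250 bases before each start, from RefSeq on GRCh38.p14, 5′ to 3′ on the gene's strand, at chr4:168092287-168092536 (plus strand) for ANXA10, chr9:73151615-73151864 (plus strand) for ANXA1 and chr4:121696981-121697230 (minus strand) for ANXA5. Capitals mark the motif TATAAA.
ANXA10: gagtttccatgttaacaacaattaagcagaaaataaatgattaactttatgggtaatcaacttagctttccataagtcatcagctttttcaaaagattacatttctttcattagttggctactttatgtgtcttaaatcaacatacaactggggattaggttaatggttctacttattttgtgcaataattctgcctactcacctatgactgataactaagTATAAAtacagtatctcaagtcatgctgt
ANXA1: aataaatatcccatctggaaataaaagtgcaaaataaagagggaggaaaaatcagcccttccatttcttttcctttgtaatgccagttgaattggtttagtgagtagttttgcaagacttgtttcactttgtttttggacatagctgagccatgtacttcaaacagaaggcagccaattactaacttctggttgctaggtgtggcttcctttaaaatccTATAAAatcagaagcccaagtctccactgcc
ANXA5: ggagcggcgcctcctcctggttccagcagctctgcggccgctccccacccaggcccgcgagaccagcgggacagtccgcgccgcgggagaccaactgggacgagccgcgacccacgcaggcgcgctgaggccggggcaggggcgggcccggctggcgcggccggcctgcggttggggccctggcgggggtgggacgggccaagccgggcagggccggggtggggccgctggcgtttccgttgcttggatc

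The ANXA10 stretch had 31.2% G and C and 0 CpG dinucleotides, and the ANXA1 stretch 38.4% and 0. Of all 35116 such stretches, 6.06% had no CpG. The ANXA5 stretch had 78.8% G and C and 31 CpG. The other annexin stretches held between 5 and 36 CpG, against a median of 11 over all stretches. The search for TATAAA covered both strands and found it on the gene's strand in 4 of the 13 annexin stretches, against 6.8% of all stretches. It began 29 bases before the start in ANXA10, 31 bases before it in ANXA1 and ANXA2, and 61 bases before it in 1 of the 3 ANXA11 stretches. These are matches of letters, and no measurement here bears on the use of the sites. The sequences used covered 9 of the 10 genes.

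The E1 arrays were not alike, and this touches every value below. The ratio of 3' to 5' signal of the GAPDH control probe sets was 0.803, 34.1 and 71.9 on E1 arrays 1, 2 and 3, and lay between 0.774 and 0.811 on the HCT116 arrays. E1 array 1 correlated more closely with the HCT116 arrays (Pearson's r from 0.957 to 0.962 across probe sets) than with E1 arrays 2 and 3 (0.934 and 0.921). Its difference from the mean of the HCT116 arrays is therefore given beside the difference over all arrays. Of 10 colon epithelial markers, EPCAM, CDH1, KRT8, KRT18 and KRT19 had means of at least 100 in either line, whereas KRT20, CDX1, CDX2, VIL1 and LGALS4 stayed below 100 in both. None of the 10 passed in limma (adjusted p under 0.05), where 0.518% of all genes passed. Every E1 array was below every HCT116 array for KRT8, at a difference of log2(intensity + 32) of -2.91 (E1 minus HCT116, SE 1.05, limma adjusted p = 0.262), and KRT18, at -0.40 (SE 0.12, adjusted p = 0.185). With E1 array 1 alone they stood at -0.48 and -0.32. Of all probe sets, 13% had every E1 array below every HCT116 array. None of the 17 markers of leukocytes, fibroblasts and endothelium passed in limma. Of the 17, 1 (VWF) had an unadjusted p under 0.05, against 15.2% of all genes. Among the 17, COL1A1 had a mean of at least 100 in either line.

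ANXA10 was the 1 annexin that separated the lines widely. Its probe set (210143_at; the array has 1 for this gene) read 22.5, 33.7 and 8.33 on E1 arrays 1, 2 and 3, against 1534, 1872 and 1461 on HCT116 arrays 1, 2 and 3. All E1 arrays were low and all HCT116 arrays high, with no overlap. The means were 21.5 ± 12.7 in E1 and 1622 ± 219 in HCT116 (SD, n = 3 each). Detection calls were not used here, so whether any ANXA10 transcript was present in E1 cannot be stated from these values.

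Differences are given on the log2(intensity + 32) scale as E1 minus HCT116, each with its standard error (SE) from a limma fit over all 22215 probe sets; a signal of 0 lies at 5 on that scale, and the change of low signals is understated. The ANXA10 difference was -4.97 (SE 0.21, 95% interval -5.48 to -4.46). That is 31.3-fold lower in E1 for intensity + 32, which is not the fold of the intensity itself. The size follows the offset, since the E1 signals lie near or below it: the difference was -6.36 with an offset of 1 and -3.82 with an offset of 100. With E1 array 1 alone, whose 3' to 5' ratio was like that of HCT116, it was -4.91.

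**Figure D1:**
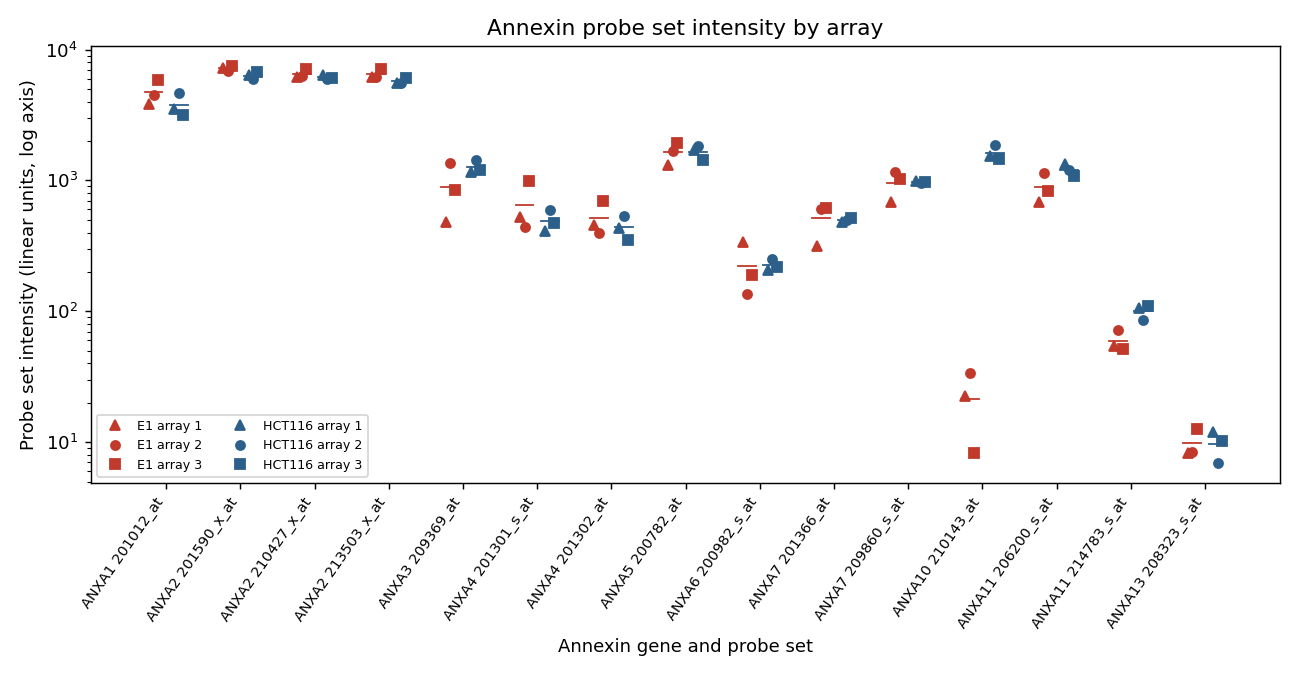
Intensity of the 15 annexin probe sets on each array (vertical log axis, linear intensity units), with E1 in red left of HCT116 in blue; marker shapes are array numbers and short lines are means of 3 arrays. ANXA10 lies between 8.33 and 33.7 on the E1 arrays and between 1461 and 1872 on the HCT116 arrays, whereas for most other probe sets the arrays of the lines overlap; heights of different probe sets are not comparable.

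A probe set was called where its adjusted p (Benjamini-Hochberg, across all 22215 probe sets) was under 0.05. Of the 15 annexin probe sets, 1 was called, that of ANXA10, and 14 were not; among all probe sets 0.77% were called (171), with 0.216% higher and 0.554% lower in E1. The arrays of the lines did not overlap for 4 annexin probe sets, 2 with E1 above and 2 with E1 below. Among all probe sets, 7.45% had every E1 array above and 13.0% every E1 array below the HCT116 arrays. The median difference was -0.01 over the 15 annexin probe sets and -0.02 over all probe sets. Since the contrast that chose the family is the one counted here, these counts are a description.

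ANXA1 and ANXA2, which dock S100 proteins, were not called, and their differences lay between 0.09 and 0.32. ANXA1, a glucocorticoid-induced annexin that signals through formyl peptide receptors, read 3823, 4490 and 5891 in E1, against 3536, 4656 and 3151 in HCT116. The lines overlapped, and the difference was 0.32 (SE 0.22, 95% interval -0.22 to 0.86). With E1 array 1 alone it was 0.04. ANXA1 shares with ANXA10 a start region without CpG and with TATAAA, shown above. The ANXA1 signal was high on all 6 arrays, and any link of start region to signal was not tested.

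ANXA2 forms a heterotetramer with S100A10 and binds actin and plasminogen at the cell surface. Its probe set 201590_x_at read 7180, 6802 and 7509 in E1, against 6375, 5910 and 6696 in HCT116. Every E1 array was above every HCT116 array there, by a difference of 0.18 (SE 0.11, 95% interval -0.10 to 0.45). A second probe set, 213503_x_at, also did not overlap, at 0.18 (SE 0.12), and the third, 210427_x_at, overlapped, at 0.09 (SE 0.11). All of these probe sets carry the _x_at ending, which Affymetrix uses where probes may bind other transcripts, and ANXA2 has processed pseudogenes of very similar sequence. The ANXA2 signal can therefore include theirs.

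ANXA11, which binds S100A6 and couples RNA granules to lysosomes, was lower in E1 by the mean at both of its probe sets. Probe set 206200_s_at read 684, 1137 and 830.4 in E1, against 1333, 1207 and 1083 in HCT116. E1 array 2 lay among the HCT116 arrays, and the difference was -0.46 (SE 0.20, 95% interval -0.96 to 0.04). Probe set 214783_s_at read 54.5, 72.2 and 51.4 in E1, against 106, 85.9 and 110 in HCT116, with no overlap. Its difference was -0.54 (SE 0.14, 95% interval -0.89 to -0.19), and neither probe set was called. With E1 array 1 alone the differences were -0.79 and -0.61.

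The annexins known from binding phosphatidylserine and from epithelial and secretory membranes overlapped between the lines. ANXA5, the anticoagulant annexin used to stain apoptotic cells, read 1314, 1674 and 1935 in E1, against 1694, 1831 and 1439 in HCT116. The lines were interleaved, with a difference of -0.02 (SE 0.18, 95% interval -0.46 to 0.42). ANXA4, an annexin of secretory epithelia, differed by 0.31 (SE 0.31) and 0.20 (SE 0.25) at its 2 probe sets, both with overlapping arrays. On 201301_s_at it read 526, 437 and 989 in E1, against 412, 595 and 472 in HCT116, and E1 array 3 alone was above the HCT116 range.

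ANXA3 had the most negative value after ANXA10, and it came mainly from 1 array. It read 479, 1358 and 842 in E1, against 1161, 1435 and 1207 in HCT116. E1 array 1 was the lowest of all, E1 array 3 lay below the HCT116 range as well, and E1 array 2 lay within it. The difference was -0.60 (SE 0.36, 95% interval -1.47 to 0.27), and -1.34 with E1 array 1 alone. Leaving out single arrays moved it between -0.95 and -0.23.

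ANXA7, first described as synexin for aggregating secretory granules, also had its lowest value on E1 array 1. Probe set 201366_at read 317, 609 and 620 in E1, against 485, 498 and 516 in HCT116, and 209860_s_at read 683, 1165 and 1032 in E1, against 988, 962 and 979.6 in HCT116. At both probe sets E1 array 1 lay below the HCT116 range and E1 arrays 2 and 3 above it. The differences over all arrays were -0.01 (SE 0.26) and -0.06 (SE 0.21), and with E1 array 1 alone -0.60 and -0.50.

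ANXA6, which has a doubled annexin core, went the other way among the E1 arrays. It read 340, 135 and 191 in E1, against 207, 250.5 and 218 in HCT116. E1 array 1 was the highest of all and E1 arrays 2 and 3 were the lowest. The difference was -0.10 (SE 0.29, 95% interval -0.81 to 0.62) over all arrays, and on E1 array 1 by itself 0.54. ANXA13, the annexin of intestinal and kidney epithelium, read 8.30, 8.47 and 12.7 in E1, against 11.9, 6.93 and 10.2 in HCT116. It was low on all arrays, with a difference of 0.01 (SE 0.11), and values this low are read without an order.

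**Figure D2:**
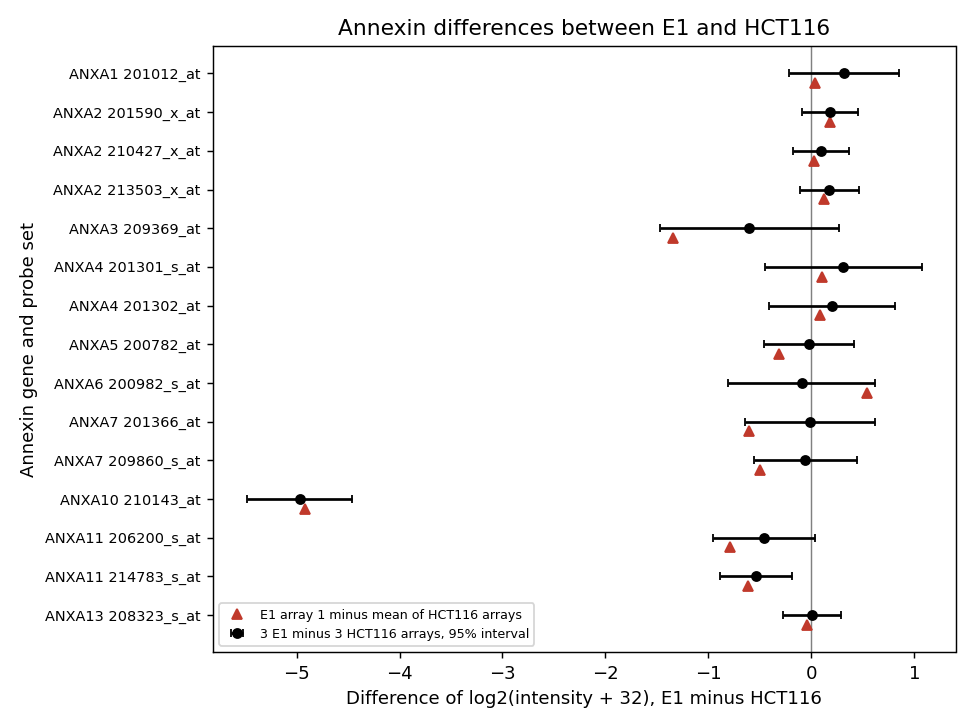
Difference of log2(intensity + 32), E1 minus HCT116 (horizontal axis), for each annexin probe set; black points with bars are all 6 arrays with the 95% interval of the limma fit, and red triangles are E1 array 1 minus the mean of the HCT116 arrays. ANXA10 stands at -4.97, and the other 14 probe sets lie between -0.60 and 0.32.

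All 6 pairs of probe sets of 1 annexin (3 for ANXA2 and 1 each for ANXA4, ANXA7 and ANXA11) had differences of the same sign over all arrays. For ANXA7, whose differences were far smaller than their errors, the signs parted under quantile normalization (0.07 at 201366_at and -0.0023 at 209860_s_at) and without HCT116 array 3 (0.0085 and -0.06). For 12 of the 14 probe sets other than ANXA10, the E1 arrays spread more widely than the HCT116 arrays, by the ratio of the highest to the lowest array. E1 array 1 was the lowest E1 array for 8 of the 14 and the highest for 1, ANXA6. That array is also the one whose GAPDH ratio differed from those of the other 2, and the part of RNA quality in the E1 spread was not tested. Over the settings that kept all arrays and single probe sets, which were 8 to 10 per probe set, the sign was constant for ANXA1, ANXA2 and ANXA4 (positive) and for ANXA3, ANXA10 and ANXA11 (negative), and it changed for ANXA5, ANXA6, ANXA7 and ANXA13. Leaving out single arrays also turned the sign of ANXA4, whose 2 probe sets then reached -0.02.

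ANXA10 lies on chromosome 4, and the genes next to it give measurements that were not used to choose the family. In the order of starts in the RefSeq table (GRCh38.p14), the 10 measured protein-coding genes on each side ran from NPY1R to SCRG1. For each of these 20 genes the probe set of highest mean was used; 1 fell and 0 rose in the limma test over all probe sets. Of all 11963 genes 0.518% were called, 0.293% higher and 0.226% lower. The gene that fell was PALLD, which encodes the actin-associated scaffold palladin and is the third gene after ANXA10. Their median difference was 0.15, against -0.01 over all genes, and 14 of the 20 were positive. With E1 array 1 alone the sign of that median turned, to -0.11, against -0.05 over all genes.

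PALLD read 451, 785 and 779.8 in E1, against 2927, 2078 and 2603 in HCT116. Every E1 array was below every HCT116 array, and the means were 672 ± 192 in E1 and 2536 ± 429 in HCT116 (SD, n = 3 each). The difference was -1.89 (SE 0.25, limma adjusted p = 0.0415), and -2.40 with E1 array 1 alone. Its 2 other probe sets were also called, 200906_s_at at -2.84 (SE 0.20, adjusted p = 0.0136) and 200907_s_at at -2.41 (SE 0.29, adjusted p = 0.0346). PALLD was called in 6 of 11 other settings, with adjusted p from 0.0129 to 0.208. Among the 6 is the setting with the mean of its probe sets, at -2.38 (limma adjusted p = 0.0300), and the others used the first probe set. The call at the first probe set was lost when any single array other than E1 array 1 was left out, with differences from -2.03 to -1.79 there.

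The genes between and around them did not pass. DDX60, an interferon-induced helicase and the gene next to ANXA10 on the PALLD side, read 25.9, 21.3 and 36.6 in E1, against 41.6, 19.2 and 23.0 in HCT116. It was low in both lines with a difference of 0.01 (SE 0.18). SPOCK3, a matrix proteoglycan gene next to ANXA10 on the other side, was also low in both lines, with means of 16.1 ± 11.9 in E1 and 22.9 ± 11.3 in HCT116 (SD, n = 3 each). Of the adjacent genes, DDX60L, between DDX60 and PALLD, was not measured. The closest genes on either side were thus at low signal in both lines, and their values say little about a difference there.

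Past PALLD, CBR4, a mitochondrial carbonyl reductase, read 322, 259 and 452 in E1, against 170.1, 262 and 165 in HCT116. Its difference was 0.70 (SE 0.25, adjusted p = 0.257), and E1 array 2 fell within the HCT116 range. The chloride-proton exchanger CLCN3 differed by 0.13 (SE 0.20) and the PARP1 cofactor HPF1 by 0.42 (SE 0.25, adjusted p = 0.475). MFAP3L did not overlap between the lines, at 136 ± 36.2 in E1 and 70.4 ± 6.79 in HCT116 (SD, n = 3 each), with a difference of 0.69 (SE 0.18, adjusted p = 0.170) at its probe set of highest mean. Its 3 other probe sets, of lower signal, were split in sign. Probe set 210493_s_at stood at 0.30 (SE 0.15), with every E1 array above every HCT116 array. Probe set 210492_at stood at -0.45 (SE 0.14), with every E1 array below every HCT116 array, and 210843_s_at at -0.44 (SE 0.38), with overlap. Further along, the glycosyltransferase gene GALNT7 differed by 0.21 (SE 0.23), the chromatin protein gene HMGB2 by 0.49 (SE 0.31) and SAP30, a subunit of the Sin3 corepressor complex, by -0.13 (SE 0.45), with its 3 other probe sets between -0.73 and 0.14.

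On the SPOCK3 side, the prohormone-processing enzyme gene CPE differed by 0.06 (SE 0.45) at 1 probe set and 0.65 (SE 0.36) at the other, the sterol oxidase gene MSMO1 by 0.41 (SE 0.28), the ubiquitin ligase adaptor gene KLHL2 by 0.25 (SE 0.20) and TMA16 by 0.34 (SE 0.21). None of these was called. Counting the genes with a mean of at least 100 in either line, which were 12 of the 20, PALLD was the 1 called and the other 11 lay between -0.13 and 0.70. With E1 array 1 alone those 11 lay between -0.64 and 0.64.

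**Figure D3:**
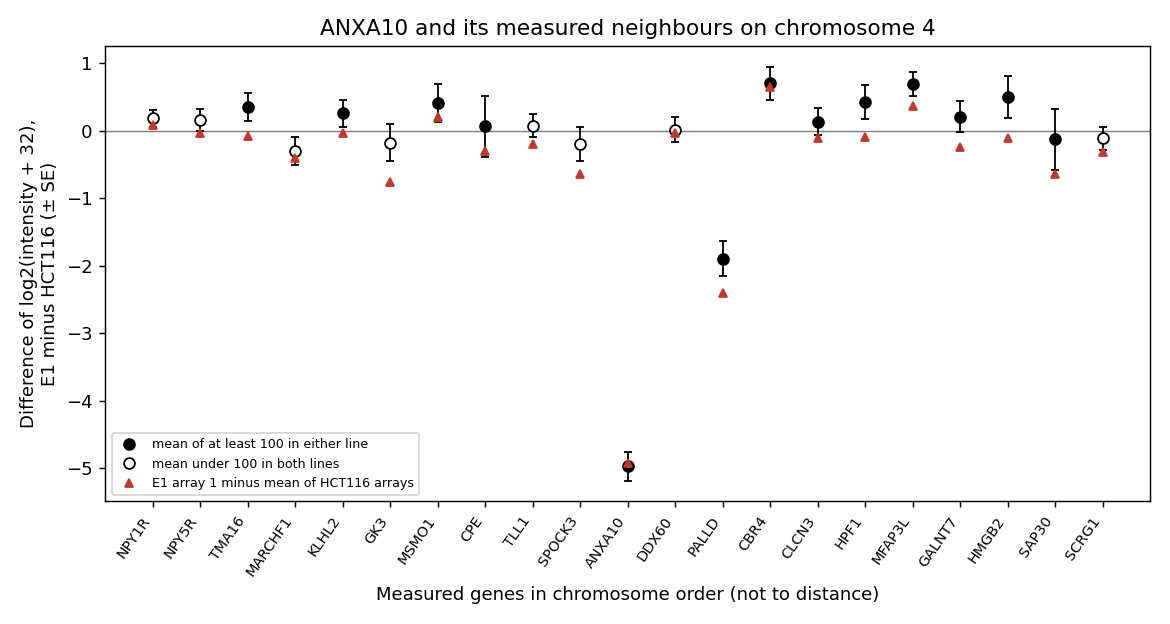
Difference of log2(intensity + 32), E1 minus HCT116, with SE (vertical axis) for ANXA10 and the 10 measured genes on each side in chromosome order (horizontal axis, not to distance); filled points had a mean of at least 100 in either line and red triangles are E1 array 1 against the mean of HCT116. ANXA10 at -4.97 and PALLD at -1.89 stand below the rest, and the other filled points lie between -0.13 and 0.70.

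The genes most like ANXA10 across the 6 arrays were TMEM259, GOLGA2, HTR7, FSCN1 and RRP12. They were ranked by Pearson's r of log2(intensity + 32) with the ANXA10 probe set among 3533 genes whose arrays spanned at least 1 on that scale, and their r was 0.998, 0.994, 0.992, 0.991 and 0.988. All 5 were lower in E1, which the ranking by a high r to ANXA10 made certain, and 47 of the 3533 had an r over 0.95. The 6 points fall into 2 groups, so r rests mainly on the difference between the lines. FSCN1, the actin-bundling protein fascin, read 83.9, 78.0 and 45.9 in E1, against 650.3, 526 and 656 in HCT116. GOLGA2, the Golgi matrix protein GM130, read 71.4, 66.8 and 60.0 in E1, against 173, 189 and 155 in HCT116. HTR7, a serotonin receptor gene, stayed below 100 in both lines, with means of 3.66 ± 1.92 in E1 and 66.1 ± 14.6 in HCT116 (SD, n = 3 each).

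The proteins that annexins bind or act through gave 1 call. Of 19 measured partner genes, 1 rose, 0 fell and 18 did not pass, with a median difference of -0.09 over all arrays and -0.22 with E1 array 1 alone. That is 1 of 19, against the 0.518% called among all genes. The list was chosen with earlier results of these data known, so the count is a description and not a test of the partners. S100A4, a calcium-binding protein that can bind ANXA2, read 5552, 4584 and 6041 in E1, against 2235, 2254 and 2103 in HCT116. The lines did not overlap, and the difference was 1.27 (SE 0.14, limma adjusted p = 0.0262). The call was made in 7 of 11 other settings and was lost when any single array other than E1 array 1 was left out, with adjusted p up to 0.167. The difference itself stayed between 1.19 and 1.39 over the 6 left-out arrays.

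The S100 proteins with the best known annexin partners did not pass. S100A10, the partner of ANXA2, read 2029, 3420 and 2024 in E1, against 3065, 2069 and 3106 in HCT116, a difference of -0.16 (SE 0.27). S100A11, the partner of ANXA1, differed by 0.35 (SE 0.24), and S100A6, the partner of ANXA11, by 0.02 (SE 0.13). The formyl peptide receptor genes FPR1, FPR2 and FPR3 had means between 32.5 and 47.1 in both lines, so the ANXA1 receptors were at low signal. PLAT, the plasminogen activator that ANXA2 can bind, differed by 0.65 (SE 0.28, adjusted p = 0.316), and the kinase gene PRKCA by 0.58 (SE 0.27, adjusted p = 0.356).

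CAPN1, a calcium-activated protease, shows how far the E1 arrays could part. It read 297, 31.1 and 16.7 in E1, against 386, 343 and 369 in HCT116. E1 array 1 was close to HCT116 and E1 arrays 2 and 3, those with high GAPDH ratios, were far below. The difference was -1.99 (SE 0.70, adjusted p = 0.253) over all arrays, and on E1 array 1 by itself -0.28.

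Genes of gastric epithelium and serrated lesions, the settings in which ANXA10 is known, gave no call. Of 13 measured genes 0 passed in limma, against 0.518% of all genes. An unadjusted p under 0.05 was found for 2 (1 positive, 1 negative), a share near the 15.2% of all genes. The median difference was 0.06 over all arrays and 0.02 with E1 array 1 alone. Signals were mostly low: 11 of the 13, among them MUC5AC, MUC6, TFF1, TFF2 and CTSE, had means under 100 in both lines. KLK10, a kallikrein protease, read 130, 68.0 and 142 in E1, against 626, 278 and 277.8 in HCT116. Its arrays did not overlap, and the difference was -1.49 (SE 0.37, adjusted p = 0.150). GATA6, a transcription factor of endoderm, read 81.4, 108 and 137 in E1, against 52.1, 50.7 and 55.1 in HCT116, a difference of 0.72 (SE 0.17, adjusted p = 0.136). MUC6 stood at -0.47 (SE 0.25) and PSCA at 0.21 (SE 0.14), both at low signal.

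Genes of the copine, synaptotagmin and ferlin families, known for membrane binding through C2 domains in place of the annexin core, also gave no call. Of 14 measured copine, synaptotagmin and ferlin genes 0 passed in limma, against 0.518% of all genes. An unadjusted p under 0.05 was found for 2, both positive, again near the 15.2% of all genes. The median difference was -0.06 over all arrays and -0.0058 with E1 array 1 alone. SYT1, a calcium sensor of vesicle fusion, stood at 1.20 (SE 0.40, adjusted p = 0.234) and SYT5 at 0.35 (SE 0.12, adjusted p = 0.239). The ferlin MYOF stood at 0.62 (SE 0.27, adjusted p = 0.325). The copine CPNE7 read 383, 54.1 and 43.7 in E1, against 372, 470 and 316 in HCT116, and its difference was -1.57 (SE 0.65) over all arrays and 0.0046 with E1 array 1 alone.

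**Figure D4:**
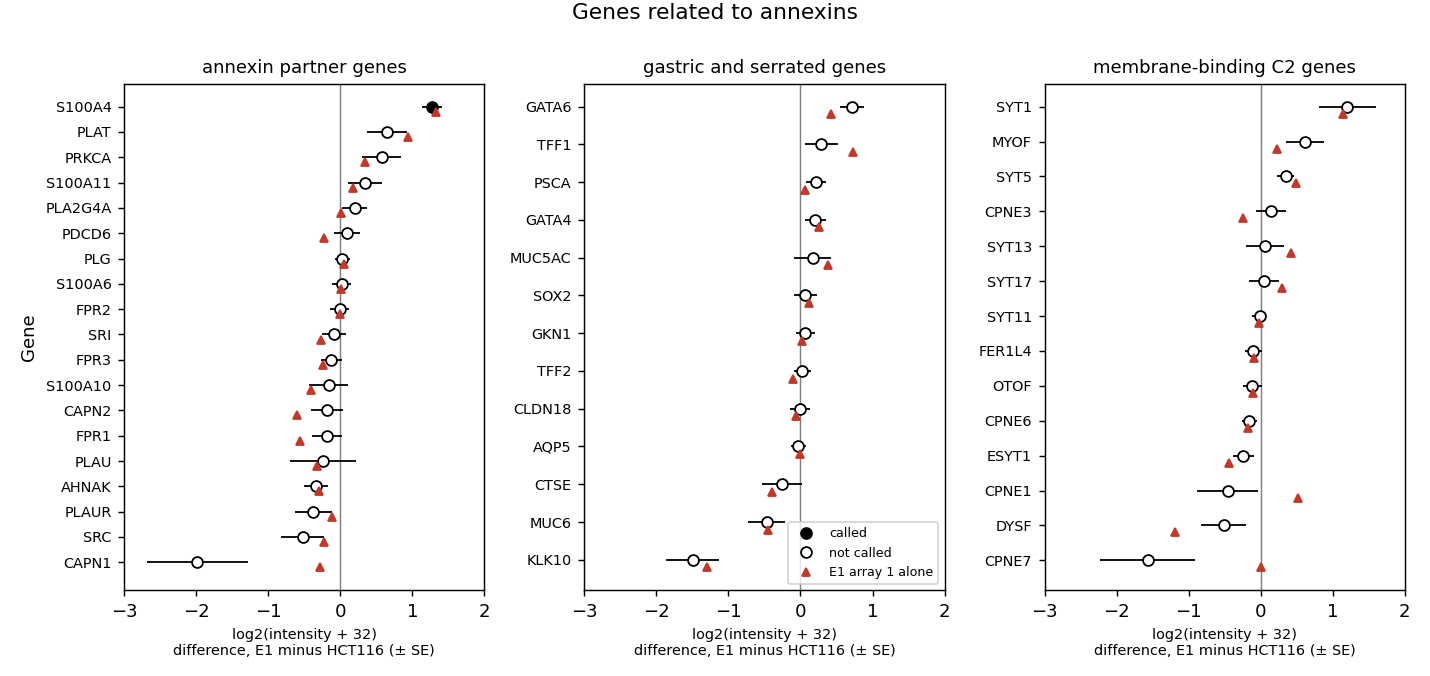
Difference of log2(intensity + 32), E1 minus HCT116, with SE (horizontal axis) for the measured genes of the partner, gastric and serrated, and C2 lists; filled points were called, open points were not, and red triangles are E1 array 1 against the mean of HCT116. S100A4 at 1.27 is the 1 filled point, and CAPN1 and CPNE7 are the genes whose triangles lie farthest to the right of their points.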

How the data were processed

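Total RNA of 2 human colon cancer cell lines was extracted with Trizol and hybridised to Affymetrix arrays, per the labels' protocols, with 3 arrays each for E1 and HCT116. As deposited by the authors, the table gives a linear intensity for every probe set on every array; how the authors summarized, background-corrected or scaled it is not given in the sources used here. The number of arrays limits the precision. The 68 control probe sets were left out, and probe sets were named only where the platform annotation gives 1 symbol (19065 of 22215). Symbols were checked by Entrez number against RefSeq (11954 of 11963 genes matched, 0 changed).

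Intensities were transformed as log2(intensity + 32) with no further normalization and fitted using lmFit and eBayes of limma (version 3.58.1, R 4.3.3), E1 minus HCT116, with Benjamini-Hochberg adjustment over 22215 probe sets and a threshold of 0.05; tests are two-sided. List genes were represented by their probe set with the highest mean. The script was tested on simulated data. Named genes are all annexins, the called genes and the 4 smallest p of each list, neighbours with a mean of at least 100, and the 5 genes most like ANXA10; S100A6, S100A10, S100A11, the formyl peptide receptors, DDX60, SPOCK3, VWF, KRT8, KRT18, CPNE1, other low gastric genes and COL1A1 were added after their values were seen. The members and lists were chosen with earlier results of these data known. Other scalings, offsets, filters, probe set choices, fits and left-out arrays were tried. Arrays were not treated as paired by replicate number in the main fit. Every column belonged to 1 of the 6 arrays.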

Additional observations from a re-analysis of the deposited data

How the results depend on the processing

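The ANXA10 difference stayed negative in all 18 other settings, and with offsets of 1 and 100 it was -6.36 and -3.82; without single arrays it ranged from -5.13 to -4.78. The count of annexin probe sets called was 1 in all settings except 0 with the replicate number as a block and 0 with E1 array 1 alone, settings in which limma called 0 of all probe sets (3126 and 2791 at an unadjusted p under 0.05; with E1 array 1 alone the spread comes from the HCT116 arrays only, and the lone array is assumed to vary as they do); without single arrays it was 1. The count of neighbour genes called was 0 with offsets of 1 and 100, without _x_at and _s_at probe sets (which leaves out PALLD), with the replicate block, with the GAPDH ratio as a covariate and with E1 array 1 alone, and ranged from 0 to 2 without single arrays. Among settings that kept all arrays, the count of partner genes was 0 with an offset of 1, the replicate block or the GAPDH covariate. It was also 0 without _x_at or _s_at probe sets, which leaves out S100A4. Without single arrays it ranged from 0 to 2. With E1 array 1 alone S100A4 stood at 1.33. The gastric and serrated count ranged from 0 to 1 and the C2 count from 0 to 2 without single arrays, and both were 0 elsewhere. The higher values all came from leaving out E1 array 1, which called 2358 probe sets, among them MFAP3L, CAPN1, GATA6, CPNE1 and CPNE7. Leaving out any other array left between 5 and 9 calls over all probe sets, and the GAPDH covariate left 6. The causes were not tested.

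Whether the replicate numbers shared by the lines pair the arrays is not known. The deviations of same-numbered arrays correlated at -0.04, -0.31 and -0.09. Of the 3 E1 arrays, 0 correlated best with the HCT116 array of its own number. With 3 arrays per line and E1 array 1 apart from the other E1 arrays, these correlations cannot exclude a pairing. With the replicate block ANXA10 stood at -4.97 (SE 0.16). In the settings that kept all arrays, apart from the replicate block and the GAPDH covariate, the calls over all probe sets went between 28, without _x_at or _s_at probe sets, and 310, without the lowest 40%, against 171; they were 50 and 47 in the gene fits (the probe set with the highest mean, and the mean of probe sets) and 111 with an offset of 100. Subtracting array medians moved the median difference of all probe sets by 0.15, to 0.13 from -0.02. That setting gave 79 higher and 127 lower calls and quantile normalization 79 and 108, against 48 and 123. Low signals limit what can be read for ANXA13, the formyl peptide receptors and the nearest neighbours of ANXA10.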

Other observations

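Annexin sequences outside the 15 probe sets were also on the array: 7 further probe sets carry an ANXA symbol, for genes not among the 10, for pseudogenes or together with another symbol. The probe set of the processed ANXA2 pseudogene ANXA2P2 read 1653, 1553 and 2299 in E1, against 1256, 1049 and 1248 in HCT116. This probe set also carries the _x_at ending, so its signal can include that of ANXA2, and the share of each was not tested. Its arrays did not overlap, and the difference was 0.60 (SE 0.18, limma adjusted p = 0.206), larger than the 0.09 to 0.18 of the ANXA2 probe sets; whether it differs from them was not tested. A probe set annotated to both ANXA2 and SNU13 went the other way, at 2434 ± 393 in E1 and 3004 ± 120 in HCT116 (SD, n = 3 each), a difference of -0.31 (SE 0.15). The probe set shared by ANXA8 and ANXA8L1 differed by 0.06 (SE 0.19). Both ANXA9 probe sets were low, with means of 13.3 and 31.7 in E1 and 26.8 and 32.2 in HCT116.

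The voltage-gated chloride transporter gene CLCN3, past PALLD on chromosome 4, had 1 of 4 probe sets apart from the others. Probe set 201732_s_at read 109, 82.1 and 49.8 in E1, against 190, 232 and 138 in HCT116, a difference of -0.97 (SE 0.26, limma adjusted p = 0.169). The other 3 lay between -0.15 and 0.13, and which transcripts each probe set reads was not analysed here.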
